A study of Homo sapiens with 18 samples.

Results

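Replication-dependent histone genes encode the linker histone H1 and the core histones H2A, H2B, H3 and H4 that package newly copied DNA. The genes described here were chosen by symbol: H1-1 to H1-6, and every symbol beginning H2AC, H2BC, H3C or H4C followed by a number, with pseudogenes left out. Of 77 symbols of this form, 12 were pseudogenes and 65 were not. Of these 65 genes, 34 were joined by Ensembl identifier to the 57905 genes of the count tables, and the other 31 are not analysed here. Among the 34, 22 exceeded 10 counts in at least 3 of the 18 libraries and 12 did not.

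RNA with poly(A) tails was sequenced from KMS12-BM and JJN3, established human multiple myeloma cell lines. Each line was left untreated with DMSO (no duration is labelled), treated for 24 h with amiloride, a potassium-sparing diuretic, or treated for 24 h with TG003, which inhibits CLK kinases and thereby the phosphorylation of splicing factors. Amiloride was used at 0.1 mM in KMS12-BM and at 0.4 mM in JJN3, and TG003 at 0.4 mM in both lines. Each of the 6 groups had 3 libraries. The labels do not say whether they came from separate cultures, so p-values measure only the spread between these samples, which may be technical. Each line is a single model of the disease, so line differences below are between these cultures.

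Most messenger RNAs end in a poly(A) tail, but messages of the replication-dependent histones do not. Their precursor is cut shortly after a conserved hairpin, the histone stem-loop, which is bound by SLBP and positioned for cleavage by the U7 small nuclear ribonucleoprotein. The genes lie in clusters, are transcribed mainly while DNA is copied, and their messages are degraded when replication stops. Some of them also make polyadenylated messages, through signals further downstream, in cells that leave the cell cycle or in which the normal cut is missed. A poly(A)-selected library therefore shows mainly that polyadenylated fraction, and in bulk RNA fewer cells that make a message cannot be told apart from less message per cell.

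Between 23707695 and 50570234 reads fell in genes. The 6 TG003 libraries stood apart in how reads were placed: 7.79% to 9.13% of their records were not unique in the genome, against 13.3% to 17.4% in the other 12, and processed pseudogenes took 0.106% to 0.130% of their reads in genes, against 4.49% to 5.61%. This split coincides with the drug, so for TG003 the placement of reads and the treatment cannot be told apart. Of 10 plasma cell markers, some had similar DMSO levels in both lines and others did not. TNFRSF17, the BCMA receptor of plasma cells, averaged 120 CPM (counts scaled to library size after TMM normalization) in KMS12-BM and 101 CPM in JJN3, and IRF4 averaged 1160 and 946 CPM. CD38 averaged 99.9 CPM in KMS12-BM and 4.34 in JJN3, SDC1 13.6 and 162, and SLAMF7 0.667 and 1.99. PAX5, a B cell factor, averaged 51.9 CPM in KMS12-BM and 0.0327 in JJN3. With TG003, 9 of the 10 plasma cell markers were lower in KMS12-BM and 8 in JJN3, beside 31.7% and 32.1% of all tested genes; their part in the results below was not tested.

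The hairpin that marks this gene class was present in nearly every member. In the reference genome (GRCh37), 33 of the 34 genes held a full match to the 16-base histone stem-loop consensus within 300 bases after the stop codon, at a distance of 23 to 58 bases (median 37). The exception was H2BC12L. Allowing 2 mismatches, 102 of 20042 protein-coding genes, or 0.509%, held such a match. Shown here, on the gene strand, are the hairpins of the most abundant member of each histone family and of H2AC20, the one member that fell with amiloride; capitals mark the 16 bases of the stem-loop, and the lower-case letters are 5 bases on either side.
H1-2: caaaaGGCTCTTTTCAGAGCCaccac
H2AC6: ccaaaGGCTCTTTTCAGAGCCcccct
H2AC20: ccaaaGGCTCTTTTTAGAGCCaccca
H2BC12: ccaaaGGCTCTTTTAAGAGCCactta
H3C4: ccaaaGGCTCTTTTCAGAGCCaacca
H4C8: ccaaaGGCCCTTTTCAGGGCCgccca

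These hairpins lie at chr6:26055972-26055987 (minus strand, H1-2), chr6:26124897-26124912 (plus, H2AC6), chr1:149858941-149858956 (plus, H2AC20), chr6:27114145-27114160 (minus, H2BC12), chr6:26197017-26197032 (minus, H3C4) and chr6:26285359-26285374 (minus, H4C8), all inside the annotated gene and after its stop codon. The core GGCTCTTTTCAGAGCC was shared by 20 members of the H1, H2A, H2B and H3 families and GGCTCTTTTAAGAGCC by 7 of the H1, H2A and H2B families, and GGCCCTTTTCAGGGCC by the 4 H4 genes. The hairpin did not separate abundant from rare members, since 22 of 22 genes above the count minimum and 11 of 12 below it held one.

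The polyadenylation signal AATAAA was rare close to the stop codon. Within 300 bases of it, 3 of the 22 members held the signal (H1-2 at 56 bases, H2BC5 at 65 and H4C11 at 16), against 27.4% of all protein-coding genes. In H1-2 and H2BC5 it follows the hairpin, and in H4C11 it precedes it. The variant ATTAAA lay within 300 bases of the stop codon in H2BC4 (202 bases), H2AC13 (214) and H2BC11 (256). Its share over all protein-coding genes was not counted. The annotation gave 11 of the 22 members a gene body of more than 1000 bases, reaching far past the hairpin, against 2 of the 12 rarer ones. Which of these forms entered the authors' counting is unknown here.

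**Figure D1:**
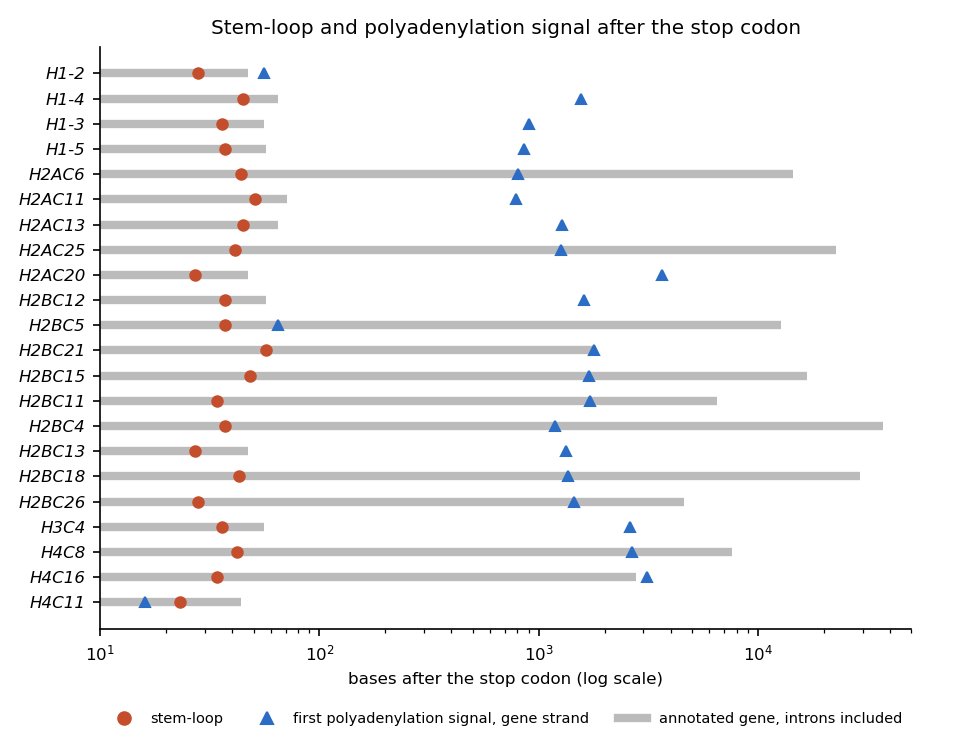
For each of the 22 members above the count minimum, the distance from the stop codon (bases, log axis) of the stem-loop (circles), of the first AATAAA signal on the gene strand (triangles) and the extent of the annotated gene with introns (grey bars). Stem-loops sit at 23 to 58 bases in every gene, while the first AATAAA is beyond 300 bases in all but H1-2, H2BC5 and H4C11. The variant ATTAAA is not drawn.

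H2A and H2B genes often stand head to head with a shared start region, and 6 such pairs were among the 34 members, with 214 to 247 bases between the annotated starts. The start regions of 3 pairs are shown because the members of each pair differed in abundance or response below. Sequences are of the plus strand of GRCh37, and the first gene named is on the minus strand. Capitals mark the octamer ATTTGCAT, bound by POU2F1, the CCAAT box and the TATAAA box, each on either strand; the 2 orientations of TATAAA overlap once in the second region.
H2BC4 and H2AC6: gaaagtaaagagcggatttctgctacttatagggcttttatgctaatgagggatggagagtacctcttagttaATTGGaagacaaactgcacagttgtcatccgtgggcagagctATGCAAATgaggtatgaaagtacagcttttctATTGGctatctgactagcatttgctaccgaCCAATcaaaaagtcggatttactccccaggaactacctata
H2BC11 and H2AC11: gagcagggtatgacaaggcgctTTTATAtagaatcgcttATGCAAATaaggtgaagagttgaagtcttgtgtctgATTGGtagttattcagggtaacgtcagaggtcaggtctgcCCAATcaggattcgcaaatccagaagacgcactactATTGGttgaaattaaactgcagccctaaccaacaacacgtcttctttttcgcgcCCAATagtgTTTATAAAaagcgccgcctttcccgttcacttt
H2BC21 and H2AC20: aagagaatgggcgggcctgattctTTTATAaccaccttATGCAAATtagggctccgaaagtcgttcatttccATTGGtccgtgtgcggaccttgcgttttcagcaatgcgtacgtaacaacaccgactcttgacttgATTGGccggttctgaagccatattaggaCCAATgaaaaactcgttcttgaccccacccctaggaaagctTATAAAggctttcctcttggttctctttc

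The regions are chr6:26124155-26124372 (218 bases), chr6:27100575-27100821 (247 bases) and chr1:149858233-149858467 (235 bases). Over RefSeq promoter windows on GRCh38.p14 around the start site, ATTTGCAT was found on either strand in 9 of the 22 members and in 1.80% of 27305 promoters. CCAAT was found in 19 of 22 against 35.7%, and TATAAA in 14 of 22 against 11.95%. The 3 H4 members held neither ATTTGCAT nor CCAAT in this window. A match describes these letters only.

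The members together made up a small share of the poly(A) reads, and that share was highest in amiloride-treated KMS12-BM. Summed over the 34 genes and scaled to all reads in genes, without TMM normalization, their CPM in KMS12-BM was 113.9, 82.3 and 79.8 in the DMSO libraries, 814, 602 and 601 with amiloride and 239, 216 and 154 with TG003. In JJN3 it was 202, 155 and 211 with DMSO, 351, 268 and 280 with amiloride and 370, 266 and 374 with TG003. No treated library overlapped the DMSO libraries of its line. The mean went from 92.0 ± 19.0 (SD, n = 3) to 673 ± 122 with amiloride in KMS12-BM, 7.31 times as high, and to 203 ± 43.8 with TG003, 2.21 times. In JJN3 it went from 189.5 ± 30.3 to 299.5 ± 45.0 with amiloride, 1.58 times, and to 337 ± 61.0 with TG003, 1.78 times.

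**Figure D2:**
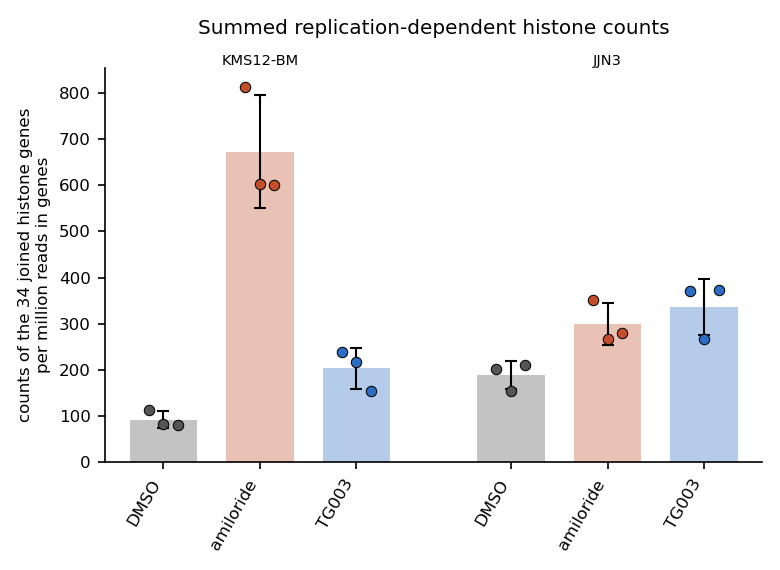
Summed CPM of the 34 joined histone genes, scaled to reads in genes (vertical axis, from 0), for the 3 libraries of each group (points), with the mean (bar) and SD (whisker). The amiloride libraries of KMS12-BM sit at 601 to 814, and every other library is at or below 374.

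Most of these counts came from 3 genes: H2BC12 (ENSG00000197903, chr6:27114140-27114634, minus strand), H2AC6 (ENSG00000180573, chr6:26124373-26139344, plus strand) and H1-2 (ENSG00000187837, chr6:26055968-26056698, minus strand). H2BC12, H2AC6 and H1-2 together held 68.0% of the member counts in untreated KMS12-BM and 78.7% in untreated JJN3, and between 68.0% and 80.6% over the 6 groups. By family, H2B genes held 35.9% to 49.2% of the counts, H2A genes 20.7% to 30.3%, H1 genes 10.9% to 36.0%, H4 genes 2.07% to 8.47% and H3 genes 0.223% to 1.10%. These shares cover joined genes only, and joining was uneven between families. All 6 H1 genes were joined, but 8 H3 and 9 H4 genes were not, against 5 and 4 that were. With amiloride in KMS12-BM the H1 share went from 24.0% to 10.9% and the H4 share from 3.74% to 8.47%.

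Levels of different genes were compared per kilobase of annotated exon (CPM per kb), which assumes that reads come from the whole annotated gene. Over the 18 libraries H2BC12 was highest with a mean of 171.5 CPM per kb, followed by H1-2 with 87.7, H2AC6 with 40.7, H2BC5 with 25.8 and H2AC11 with 18.7. In untreated KMS12-BM, H2BC12 had 55.6 ± 15.1 CPM per kb (SD, n = 3) and H1-2 30.2 ± 7.24, while H2AC11 at 9.82 and H2AC6 at 8.63 ± 1.75 were not separated by more than their spread. In untreated JJN3 the order was H2BC12 at 136 ± 23.4, H1-2 at 78.8 ± 16, H2AC6 at 19.9 ± 3.73 and H2AC11 at 15.6. The lowest of the 22 per kilobase was H2BC26, with 0.0552 CPM per kb over all libraries.

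**Figure D3:**
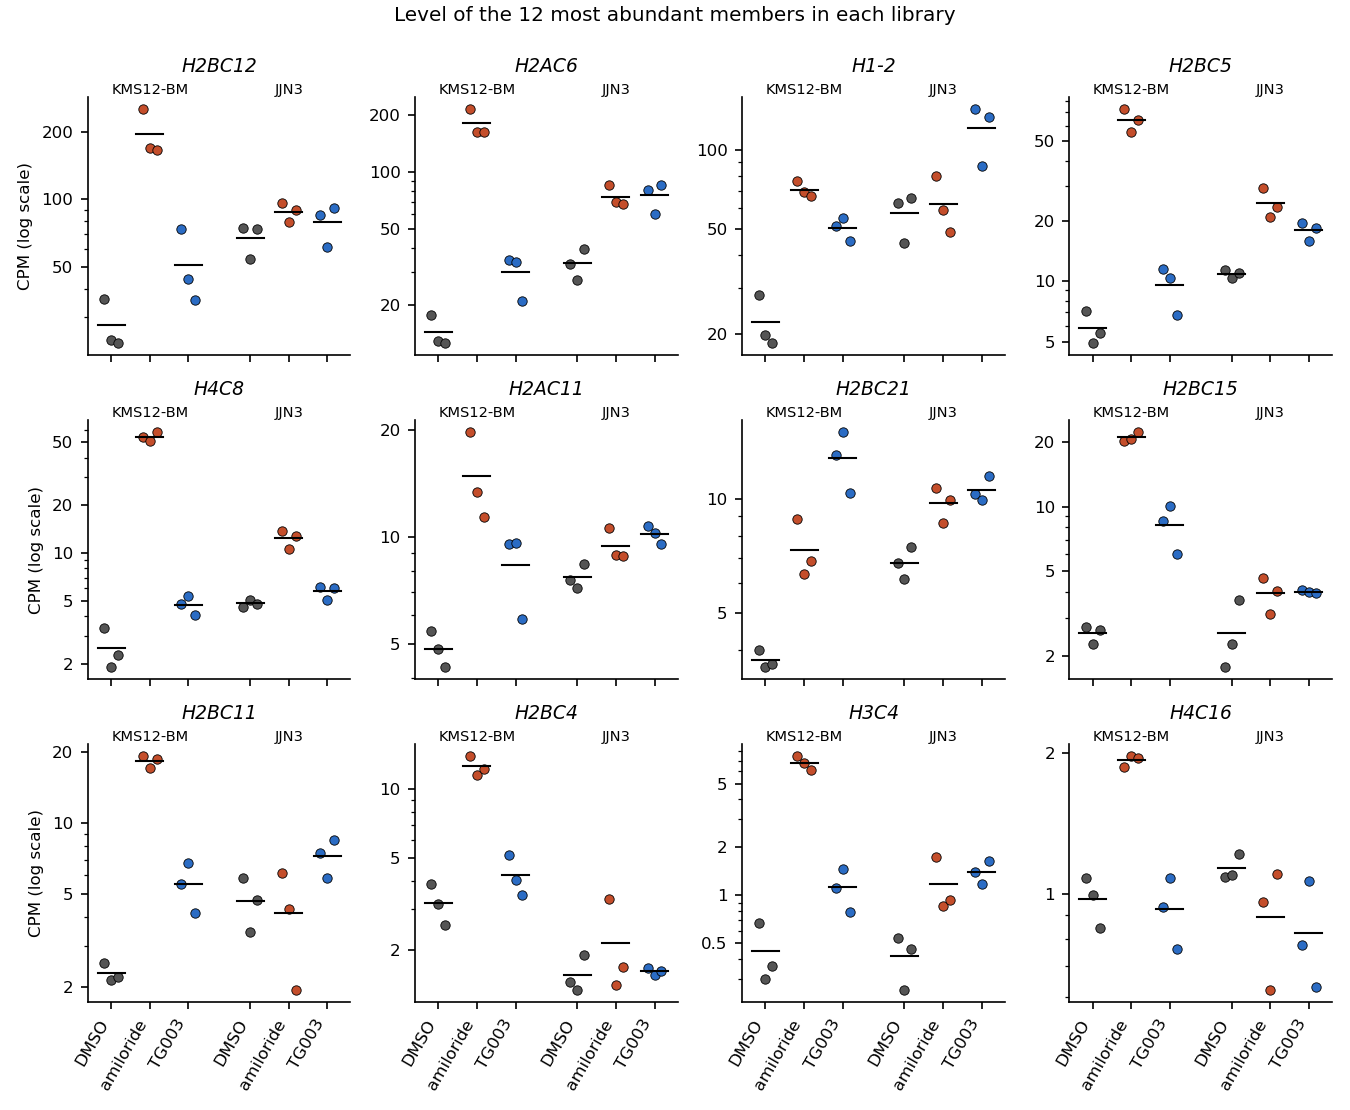
Level in CPM (log axis, scale differs between panels) of the 12 members with the highest mean over all 18 libraries, in each library (points) with the group mean (line), grouped by line and treatment. Amiloride libraries of KMS12-BM lie above all DMSO libraries of that line in each of the 12 panels.

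Changes were tested with edgeR over all genes that passed a filter on low counts, with an adjusted p under 0.05 as the threshold for a call. Values in parentheses below are edgeR's log2 fold change ± its standard error, with the adjusted p. In KMS12-BM with amiloride, 17 of 20 tested members were higher and 1 was lower than with DMSO, where 33.5% of all 15765 tested genes were higher, 35.2% lower and 68.7% called in all. Their median log2 fold change was 1.89, beside -0.02 for all genes, and 15 of the 20 were called and at least doubled, beside 12% of all genes. CPM ranges of the treated and DMSO libraries did not overlap for 18 members, beside 71.7% of all genes. Among the 17 higher is H2BC18, which passed the filter through treated libraries. With TG003 in that line 14 of 20 were higher and 0 lower (all genes: 26.9% and 31.7%, 58.6% in all), with a median of 0.96, 9 at least doubled (9.34% of all genes) and 10 without overlap (68.6%). Among the 14 is H4C11, which exceeded 10 counts only in TG003 libraries. At an unadjusted p under 0.05 edgeR gave 15 higher and 0 lower, DESeq2 called 14 and 0, and limma voom 13 and 0.

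In JJN3, 8 of 18 tested members were higher with amiloride and 0 lower, beside 19.7% and 23.9% (43.6% in all) of all 15704 tested genes, with a median log2 fold change of 0.47. At least doubled were 6, beside 2.78% of all genes, and 10 had no overlap, beside 51.7%. At an unadjusted p under 0.05 edgeR gave 10 higher and 1 lower (H2AC20), DESeq2 called 9 and 0, and limma voom 8 and 0. With TG003, 12 of 18 were higher and 0 lower, beside 26.2% and 32.1% (58.3% in all) of all genes, with a median of 0.90. At least doubled were 8, beside 6.17% of all genes, and 14 had no overlap, beside 66.3%. At an unadjusted p under 0.05 edgeR gave 12 higher and 0 lower, DESeq2 called 12 and 0, and limma voom 12 and 0. Some of the genes called in JJN3 exceeded 10 counts there only in treated libraries. These were H1-3 and H2AC13 with both drugs and H2BC18 with TG003. Without the third KMS12-BM DMSO library the TG003 count in that line was 9 instead of 14. The members of a line share its 9 libraries and are not replicates of the treatment, and both drugs of a line are compared with the same 3 DMSO libraries.

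**Figure D4:**
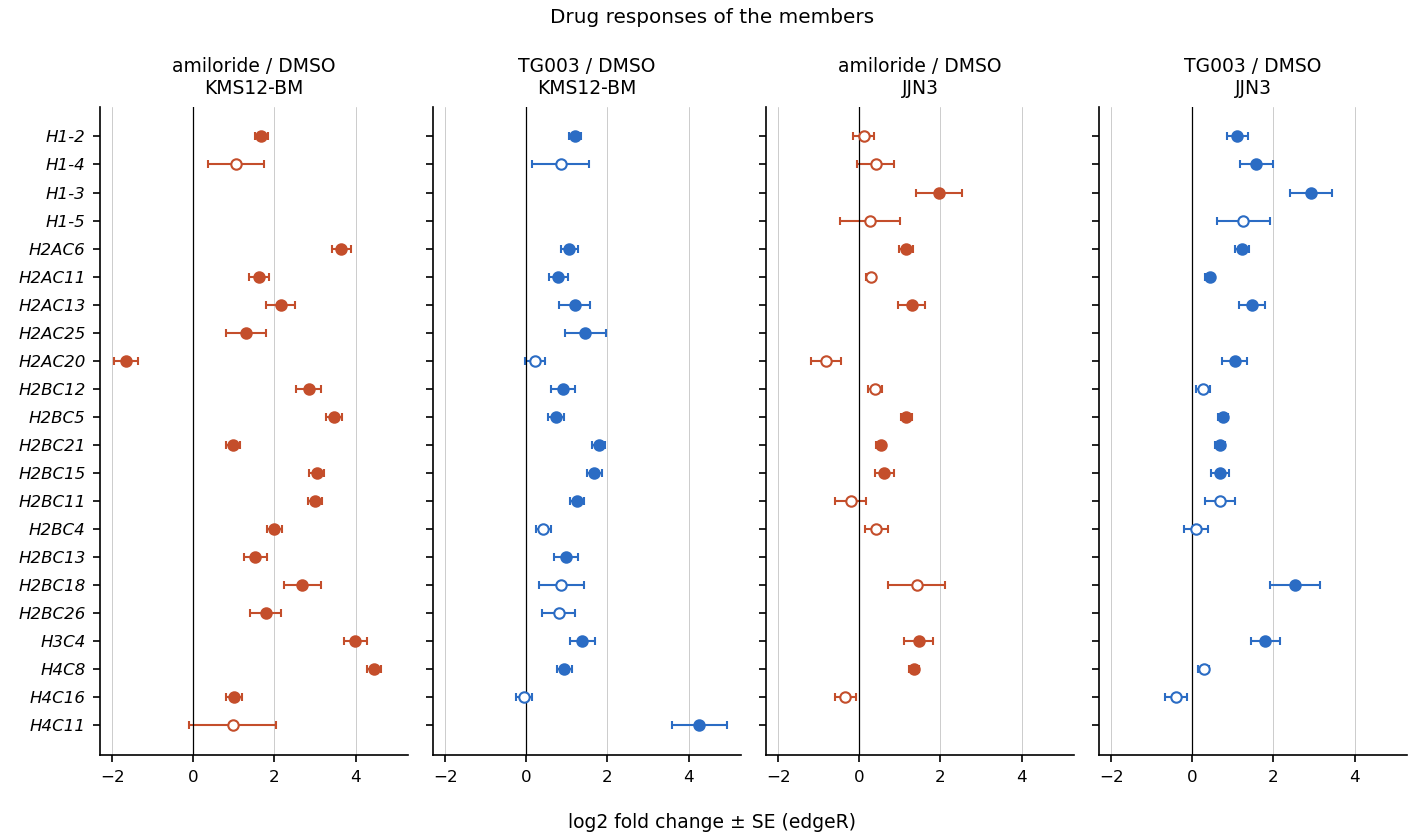
Log2 fold change of each tested member with each drug against DMSO (horizontal axis, ± SE from edgeR), ordered by histone family and abundance. Filled circles passed an adjusted p of 0.05 and open circles did not; a missing circle means that the gene was not tested in that line. H2AC20 is the only filled circle left of 0, and the fitted value of H4C11 with TG003 rests on 2 counts over 3 DMSO libraries.

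Linker histones bind the DNA between nucleosomes. In KMS12-BM H1-2, the most abundant H1 member, was at 28.2, 19.8 and 18.4 CPM with DMSO, 76.04, 69.1 and 66.8 with amiloride and 51.3, 55.3 and 44.9 with TG003. It rose 3.21-fold with amiloride (1.68 ± 0.15, adjusted p = 2.37e-06) and 2.3-fold with TG003 (1.20 ± 0.15, adjusted p = 4.75e-05), and neither treated range overlapped the DMSO range. In JJN3, H1-2 was at 63.1, 44.2 and 65.5 CPM with DMSO, 79.5, 59.3 and 48.6 with amiloride and 144, 87.2 and 133 with TG003. The amiloride range overlapped that of DMSO there, with a log2 fold change of 0.11 ± 0.26, adjusted p = 0.772, which did not pass the test, while with TG003 the gene rose 2.15-fold (1.11 ± 0.26, adjusted p = 0.00762).

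The other H1 genes were near the count limit. H1-3 had 6, 4 and 0 counts with DMSO in JJN3, 13, 19 and 16 with amiloride and 34, 33 and 21 with TG003. It rose with both drugs there (log2 fold change 1.96 ± 0.57, adjusted p = 0.0135 with amiloride and 2.92 ± 0.52, adjusted p = 0.000324 with TG003). Without the first DMSO library, these were 2.72 and 3.67. H1-3 exceeded 10 counts in JJN3 only in treated libraries, through which it passed the filter. In KMS12-BM H1-3 had 4, 5 and 5 counts with DMSO, 5, 4 and 2 with amiloride and 1, 4 and 2 with TG003, and was not tested within that line. H1-4 rose with TG003 in JJN3 (1.58 ± 0.41, adjusted p = 0.00547), from 12, 11 and 11 counts to 29, 71 and 23, and was not called in the other 3 drug comparisons. In KMS12-BM with TG003 its counts were 12, 49 and 11, and without the second library the TG003 value was -0.38. H1-5 had 0 counts in all 9 KMS12-BM libraries and 4 to 28 in JJN3, and passed the test with neither drug (1.25 ± 0.66, adjusted p = 0.123 with TG003); without the first amiloride library, which shares the fit, the TG003 value passed (1.25, adjusted p = 0.0152).

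H2AC6 was the most abundant H2A member by CPM. In KMS12-BM it was at 17.8, 12.9 and 12.6 CPM with DMSO, 216, 162 and 163 with amiloride and 34.6, 33.7 and 21.02 with TG003. It rose 12.6-fold with amiloride (3.65 ± 0.23, adjusted p = 4.43e-07) and 2.08-fold with TG003 (1.06 ± 0.21, adjusted p = 0.0019), and every treated library lay above the DMSO libraries. In JJN3, H2AC6 was at 32.9, 27.1 and 39.5 CPM with DMSO, 85.9, 69.4 and 67.7 with amiloride and 80.3, 60.1 and 85.8 with TG003. Both drugs raised it there, 2.23-fold with amiloride (1.16 ± 0.17, adjusted p = 0.000559) and 2.32-fold with TG003 (1.22 ± 0.17, adjusted p = 0.000195), with no overlap with DMSO.

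H2AC11, which shares its start region with H2BC11, changed less. In KMS12-BM it was at 5.42, 4.81 and 4.298 CPM with DMSO, 19.7, 13.4 and 11.3 with amiloride and 9.56, 9.57 and 5.88 with TG003. The rise was 3.07-fold with amiloride (1.62 ± 0.24, adjusted p = 0.000104) and 1.73-fold with TG003 (0.79 ± 0.24, adjusted p = 0.0147), with all treated libraries above DMSO. The TG003 call ended when the third DMSO library or the first or second TG003 library was left out (log2 fold change 0.68 to 0.70, adjusted p 0.0537 to 0.0587). In JJN3 H2AC11 was at 7.57, 7.19 and 8.38 CPM with DMSO, 10.5, 8.902 and 8.85 with amiloride and 10.7, 10.2 and 9.55 with TG003. Only TG003 passed the test there (0.43 ± 0.11, adjusted p = 0.00526); with amiloride the value was 0.28 ± 0.11, adjusted p = 0.0607, although the 2 ranges did not overlap.

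H2AC20 moved the other way with amiloride. Its KMS12-BM counts were 16, 39 and 37 with DMSO, 9, 12 and 6 with amiloride and 31, 31 and 34 with TG003. It fell with amiloride by 1.66 on the log2 scale (SE 0.29, adjusted p = 0.000329), the 1 fall among the 4 drug comparisons. In JJN3 it rose with TG003 (1.04 ± 0.30, adjusted p = 0.00948), and with amiloride the value was -0.82 ± 0.37, adjusted p = 0.0887, which did not pass the test. H2AC13 rose in all 4 comparisons, by 2.15 and 1.19 in KMS12-BM and by 1.29 and 1.47 in JJN3 (log2, amiloride then TG003). Its TG003 call in KMS12-BM ended without any 1 of 4 libraries (the second or the third DMSO, the first or second TG003; adjusted p 0.0513 to 0.0764), and H2AC14 is a near-identical copy. H2AC25, counted only in KMS12-BM, rose by 1.30 with amiloride and 1.45 with TG003. Each of these 2 calls ended when any DMSO library or the first or second treated library was left out (adjusted p 0.0715 to 0.142 with amiloride and 0.0579 to 0.107 with TG003).

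H2BC12 was the most abundant member. In KMS12-BM it was at 36.1, 23.6 and 22.8 CPM with DMSO, 253, 169 and 166 with amiloride and 73.5, 44.1 and 35.6 with TG003. It rose 7.14-fold with amiloride (2.84 ± 0.31, adjusted p = 3.08e-05), and the lowest amiloride library was above the highest DMSO library. With TG003 it rose 1.87-fold (0.90 ± 0.30, adjusted p = 0.0272), but the third TG003 library lay inside the DMSO range, and the call ended without the second or the third DMSO library or the first TG003 library (log2 fold change 0.55 to 0.80, adjusted p 0.0944 to 0.100). In JJN3 H2BC12 was at 74.6, 53.97 and 73.5 CPM with DMSO, 95.8, 79.3 and 89.5 with amiloride and 85.1, 61.5 and 91.2 with TG003. Neither drug passed the test there (0.38 ± 0.17, adjusted p = 0.0941 with amiloride and 0.27 ± 0.17, adjusted p = 0.205 with TG003). With the numbered library sets as a replicate block, the TG003 value was 0.26 and passed (adjusted p = 0.0108), as it did without the filter on low counts (0.26, adjusted p = 0.0121). The amiloride value passed with the block, without the filter, with DESeq2 and with the compared groups alone (0.39 to 0.42, adjusted p 5.1e-05 to 0.0412). Without the second TG003 library both passed, at 0.39 (adjusted p = 0.0286) with amiloride and 0.42 (adjusted p = 0.026) with TG003. The near-identical H2BC12L had 67 counts over all 18 libraries, so reads shared between the 2 genes are uncertain.

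H2BC5 carries a polyadenylation signal just after its hairpin. In KMS12-BM it was at 7.07, 4.89 and 5.52 CPM with DMSO, 72.9, 55.5 and 64.2 with amiloride and 11.5, 10.4 and 6.79 with TG003. It rose 11.1-fold with amiloride (3.47 ± 0.21, adjusted p = 1.84e-07) and 1.65-fold with TG003 (0.72 ± 0.20, adjusted p = 0.0103), where the third TG003 library overlapped DMSO. In JJN3 it was at 11.3, 10.4 and 10.97 CPM with DMSO, 29.2, 20.96 and 23.5 with amiloride and 19.5, 15.9 and 18.6 with TG003. Both rises passed the test, 2.24-fold with amiloride (1.16 ± 0.13, adjusted p = 2.45e-05) and 1.68-fold with TG003 (0.75 ± 0.13, adjusted p = 0.000275), and no treated library overlapped DMSO.

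H2BC15 and H2BC11, on chromosome 6, had amiloride responses of about the same size in KMS12-BM. H2BC15 was at 2.74, 2.28 and 2.65 CPM with DMSO, 20.2, 20.6 and 22.3 with amiloride and 8.57, 10.01 and 5.98 with TG003. It rose 8.24-fold with amiloride (3.04 ± 0.18, adjusted p = 9.25e-08) and 3.2-fold with TG003 (1.68 ± 0.18, adjusted p = 9.41e-06), with neither range overlapping DMSO. In JJN3 H2BC15 was at 1.77, 2.28 and 3.64 CPM with DMSO, 4.62, 3.16 and 4.03 with amiloride and 4.06, 3.996 and 3.94 with TG003. The second amiloride library was below the third DMSO library, while all TG003 libraries were above DMSO. The amiloride value was 0.62 ± 0.23, adjusted p = 0.0417; this call ended without any 1 of 7 libraries, namely the first or second DMSO, the first or the third amiloride, or any TG003 library (log2 fold change 0.42 to 0.63, adjusted p 0.0539 to 0.153). The TG003 value was 0.69 ± 0.23, adjusted p = 0.019, and that call ended without the first or second DMSO library (adjusted p 0.0750 and 0.0790).

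H2BC11 was at 2.54, 2.16 and 2.21 CPM with DMSO, 19.4, 17.2 and 18.7 with amiloride and 5.52, 6.801 and 4.16 with TG003 in KMS12-BM. The rise was 8.03-fold with amiloride (3.01 ± 0.17, adjusted p = 8.31e-08) and 2.4-fold with TG003 (1.26 ± 0.17, adjusted p = 7.76e-05), again without overlap. In JJN3 H2BC11 was at 5.86, 3.44 and 4.69 CPM with DMSO, 6.12, 4.32 and 1.94 with amiloride and 7.46, 5.86 and 8.45 with TG003. The third amiloride library was the lowest of all 9, and neither drug passed the test (-0.22 ± 0.38, adjusted p = 0.683 with amiloride and 0.67 ± 0.37, adjusted p = 0.151 with TG003). Without that amiloride library the fold change with amiloride was 0.15, on the other side of 0, and the TG003 value was 0.67 and passed (adjusted p = 0.0227).

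H2BC21, from the cluster on chromosome 1, was the abundant member with a larger rise with TG003 than with amiloride in KMS12-BM. It was at 3.99, 3.597 and 3.65 CPM with DMSO, 8.85, 6.35 and 6.86 with amiloride and 13.1, 15.03 and 10.4 with TG003. The rise was 3.43-fold with TG003 (1.78 ± 0.17, adjusted p = 3.96e-06) and 1.97-fold with amiloride (0.98 ± 0.17, adjusted p = 0.000293), and all TG003 libraries were above all amiloride libraries. In JJN3 H2BC21 was at 6.77, 6.14 and 7.45 CPM with DMSO, 10.7, 8.67 and 9.97 with amiloride and 10.3, 9.92 and 11.5 with TG003. Both drugs raised it there, 1.44-fold with amiloride (0.52 ± 0.12, adjusted p = 0.00416) and 1.59-fold with TG003 (0.67 ± 0.12, adjusted p = 0.000403), and no treated library overlapped DMSO. It has a stretch of 112 bases near-identical to H2BC18, and the TG003 libraries differ from the others in the placement of reads; whether this touches its value was not tested.

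H2BC4 rose only with amiloride in KMS12-BM among the 4 drug comparisons. In that line it was at 3.86, 3.18 and 2.57 CPM with DMSO, 14.04, 11.6 and 12.3 with amiloride and 5.16, 4.04 and 3.47 with TG003. The amiloride rise was 3.99-fold (2.0 ± 0.18, adjusted p = 1.98e-06), and the TG003 value was 0.42 ± 0.19, adjusted p = 0.0733. With the numbered sets as a replicate block the TG003 value was 0.41 and passed (adjusted p = 0.0183); it also passed without the first DMSO or the third TG003 library (0.54 and 0.56, adjusted p 0.0284 to 0.0396). In JJN3 H2BC4 was at 1.45, 1.32 and 1.88 CPM with DMSO, 3.33, 1.397 and 1.69 with amiloride and 1.66, 1.54 and 1.61 with TG003, and neither drug passed the test. Its annotated body overlaps H1-6 on the same strand and HFE, an iron-handling gene, and H4C3 on the other. HFE had 2 counts over the 9 KMS12-BM libraries and 1322 over those of JJN3. The strand setting of the counting is not known here.

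The rarer H2B members were H2BC13, H2BC18 and H2BC26, all below 2 CPM in each library. In KMS12-BM with amiloride they rose by 1.53, 2.69 and 1.78 on the log2 scale (adjusted p 0.000505, 0.000253 and 0.00127). H2BC18 had 4, 2 and 11 counts with DMSO there and 39, 42 and 24 with amiloride, and it passed the filter through treated libraries. Without the third DMSO library its value was 3.35. With TG003 in that line, H2BC13 rose (0.98 ± 0.30, adjusted p = 0.0141), although not without the third DMSO or second TG003 library (adjusted p 0.0593 and 0.0603). In JJN3, H2BC18 rose with TG003 (2.53 ± 0.62, adjusted p = 0.00352), and by 1.89 without the second TG003 library, which held 37 of the 57 counts of that group. It also passed without the third TG003 library in KMS12-BM (1.28, adjusted p = 0.047) and, for amiloride in JJN3, without the second amiloride library (1.83, adjusted p = 0.0455). H2BC18 has near-identical copies, among them H2BC21.

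H3C4 (ENSG00000197409, chr6:26197012-26197514, minus strand) was the only H3 member above the count minimum. In KMS12-BM its counts were 20, 12 and 18 with DMSO, 294, 300 and 182 with amiloride and 43, 46 and 32 with TG003. In JJN3 they were 15, 9 and 11, then 42, 33 and 40, then 38, 52 and 52. No treated library overlapped DMSO in CPM in either line, and all 4 changes passed the test. H3C4 rose 15.9-fold with amiloride (3.99 ± 0.28, adjusted p = 3.13e-07) and 2.6-fold with TG003 (1.38 ± 0.31, adjusted p = 0.00273) in KMS12-BM. The rises in JJN3 were 2.76-fold (1.46 ± 0.36, adjusted p = 0.00563) and 3.48-fold (1.80 ± 0.35, adjusted p = 0.000719). In CPM, the group means of H3C4 were 0.445, 6.81 and 1.123 in KMS12-BM and 0.419, 1.18 and 1.41 in JJN3 (DMSO, amiloride, TG003).

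H4C8 (ENSG00000158406, chr6:26277837-26285866, minus strand) had the largest amiloride value of the 20 members tested in KMS12-BM. An unnamed gene of the annotation overlaps it and H3C4 on the other strand, and H2AC6 and H2BC5 on the same strand. In that line it was at 3.35, 1.91 and 2.27 CPM with DMSO, 53.98, 50.8 and 57.8 with amiloride and 4.74, 5.34 and 4.08 with TG003. It rose 22-fold with amiloride (4.46 ± 0.18, adjusted p = 1.43e-08) and 1.91-fold with TG003 (0.94 ± 0.18, adjusted p = 0.00102), with no overlap. In JJN3 H4C8 was at 4.597, 5.04 and 4.77 CPM with DMSO, 13.7, 10.6 and 12.9 with amiloride and 6.13, 5.04 and 6.05 with TG003. Amiloride raised it 2.56-fold (1.35 ± 0.13, adjusted p = 1.03e-05), while TG003 gave 0.28 ± 0.14, adjusted p = 0.0963, which did not pass the test. Without the second TG003 library the TG003 value was 0.37 and passed (adjusted p = 0.0484).

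H4C16, the member on chromosome 12, was called in 1 of the 4 drug comparisons. In KMS12-BM it was at 1.08, 0.992 and 0.844 CPM with DMSO, 1.87, 1.97 and 1.95 with amiloride and 0.937, 1.08 and 0.763 with TG003. It rose 2.0-fold with amiloride (1.0 ± 0.19, adjusted p = 0.000577), and the TG003 value was -0.06 ± 0.20, adjusted p = 0.832. In JJN3 H4C16 was at 1.09, 1.099 and 1.21 CPM with DMSO, 0.958, 0.621 and 1.1 with amiloride and 0.775, 1.07 and 0.631 with TG003, and neither drug passed the test (-0.35 ± 0.27, adjusted p = 0.317 and -0.40 ± 0.27, adjusted p = 0.223). H4C11 had 0, 0 and 2 counts with DMSO in KMS12-BM, 1, 1 and 2 with amiloride and 20, 10 and 12 with TG003. It exceeded 10 counts in 3 libraries, all with TG003, and so passed the count minimum only through the groups where it was high. The ratio of TG003 to DMSO was 22.7, with a 95% exact counting interval of 5.91 to 194, which covers counting error only, and edgeR called it (4.27 ± 0.68, adjusted p = 0.000242; 6.81 without the third DMSO library, which held both counts). In JJN3 TG003 gave 24 counts against 1 with DMSO, a ratio of 20.3 (95% counting interval 3.31 to 835), and H4C11 was not tested. H4C12 is a near-identical copy of H4C11 over 387 bases, and TG003 libraries had fewer reads that were not unique; the part of read placement in this rise was not tested.

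Genes with a shared start region did not always move together. In KMS12-BM with amiloride, H2BC21 rose while H2AC20 fell (log2 0.98 and -1.66). With DMSO the H2BC21 level was 1.69 CPM per kb and that of H2AC20 1.52; with amiloride they were 3.31 and 0.475. In JJN3 with amiloride the values were 0.52 and -0.82, of which only the first passed the test. With TG003 both rose in JJN3 (0.67 and 1.04).

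H2AC6 responded more than its partner H2BC4 in value in all 4 comparisons, at 3.65 against 2.0 with amiloride in KMS12-BM and 1.06 against 0.42 with TG003. For H2BC11 and H2AC11 the H2B gene had the larger value with amiloride in KMS12-BM (3.01 and 1.62). H2BC13 and H2AC13 both rose with each drug in KMS12-BM, and H2AC25 and H2BC26 both rose with amiloride there. The difference within a pair was not tested. H2AC1 and H2BC1 had 1 and 0 counts in all libraries.

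**Figure D5:**
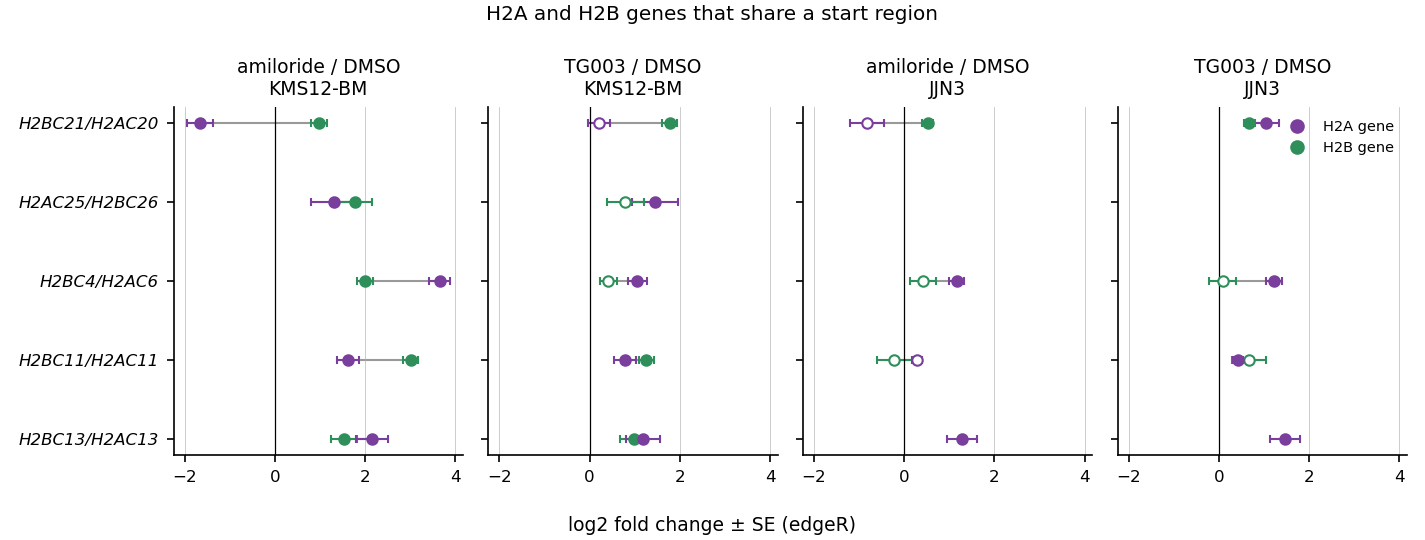
Log2 fold change (horizontal axis, ± SE from edgeR) of the H2A and H2B genes of 5 head-to-head pairs, for each drug and line; a grey line joins the genes of a pair, and filled circles passed an adjusted p of 0.05. In KMS12-BM with amiloride the H2BC21 and H2AC20 circles lie on opposite sides of 0.

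Amiloride and TG003 were compared at the same dose, 0.4 mM, only in JJN3. There 2 of 18 members were higher with amiloride and 4 lower, beside 33.3% and 28.9% (62.2% in all) of all tested genes. H4C8 (1.07 ± 0.13, adjusted p = 9.68e-06) and H2BC5 (0.41 ± 0.12, adjusted p = 0.0114) were higher with amiloride, and H2AC20 (-1.87 ± 0.32, adjusted p = 0.000223), H1-2 (-1.0 ± 0.26, adjusted p = 0.011), H1-4 (-1.18 ± 0.39, adjusted p = 0.0171) and H1-3 (-0.95 ± 0.39, adjusted p = 0.0452) were higher with TG003. The other 12 did not pass; for H2AC6 the difference was -0.06 and for H2BC12 0.12. The H2BC5 call ended without the first amiloride or second TG003 library (adjusted p 0.0532 and 0.0588), the H1-4 call without the second or the third amiloride or the second TG003 library (adjusted p 0.0715 to 0.127), and the H1-3 call without any 1 of 6 libraries: the second DMSO, any amiloride, or the first or second TG003 (adjusted p 0.0548 to 0.197). Without the second TG003 library 3 members were called in all.

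In KMS12-BM the doses differed, 0.1 mM of amiloride and 0.4 mM of TG003. With that difference, 14 of 20 members were higher with amiloride and 3 lower, beside 40.9% and 36.9% (77.8% in all) of all genes. The widest gap was in H4C8, with the CPM values given above (3.52 ± 0.17, adjusted p = 5.91e-09). H2BC21 (-0.80 ± 0.16, adjusted p = 0.000676), H2AC20 (-1.87 ± 0.29, adjusted p = 9.72e-05) and H4C11 (adjusted p = 0.000346) were the 3 that were lower with amiloride. Calls for H1-2 (adjusted p = 0.0504) and H2AC13 (0.0765) ended without the third TG003 library, and that for H2BC26 without either that library or the second amiloride library (0.0994 to 0.153).

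Untreated, the lines differed in some members, in a share not above that of all genes. Of 22 tested, 5 were higher in KMS12-BM and 9 higher in JJN3, beside 36.8% and 39.3% (76.0% in all) of all 17772 tested genes. The abundant genes H1-2 (-1.39 ± 0.23, adjusted p = 3.76e-05), H2BC12 (-1.30 ± 0.28, adjusted p = 0.000654), H2AC6 (-1.21 ± 0.22, adjusted p = 9.5e-05), H2BC11 (-1.02 ± 0.32, adjusted p = 0.00806), H4C8 (-0.96 ± 0.17, adjusted p = 2.96e-05), H2BC5 (-0.91 ± 0.18, adjusted p = 0.000166), H2BC21 (-0.86 ± 0.15, adjusted p = 4.22e-05) and H2AC11 (-0.68 ± 0.20, adjusted p = 0.00391) were lower in KMS12-BM than in JJN3. H2BC4 (1.05 ± 0.26, adjusted p = 0.00102), H2AC20 (1.10 ± 0.29, adjusted p = 0.00169) and H2BC13 (2.70 ± 0.60, adjusted p = 0.000416) were higher. H2BC15 and H3C4 did not pass, with log2 differences of 0.01 and 0.06.

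Members at 0 in a whole line were on either side. H2AC25 and its head-to-head partner H2BC26, on chromosome 1, had 367 and 190 counts over the 9 KMS12-BM libraries and 0 in all 9 JJN3 libraries. Against a floor of 3 counts for the 9 JJN3 libraries, they were at least 105-fold and at least 54.5-fold higher in KMS12-BM. H1-5 had 120 counts over the JJN3 libraries and 0 in KMS12-BM, at least 46.5-fold higher in JJN3. Among members below the count minimum, H4C3 had 37 counts in JJN3 and 0 in KMS12-BM.

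The response to amiloride differed between the lines for 12 of 22 members, beside 43.2% of all tested genes, in the interaction term of edgeR's fit to all 18 libraries. The amiloride doses differed, so the line and the dose cannot be told apart. Among the 22, H2AC25 and H2BC26 had no count in JJN3 and H1-5 none in KMS12-BM. Their difference in response could not be estimated for either drug. The rise was larger in KMS12-BM for 11 members (all genes: 21.6% in each direction). H2BC11 differed by 3.21 ± 0.43, adjusted p = 1.43e-05 on the log2 scale, H4C8 by 3.10 ± 0.22, adjusted p = 2.27e-09, H3C4 by 2.52 ± 0.50, adjusted p = 0.000351, H2AC6 by 2.49 ± 0.30, adjusted p = 6.05e-06 and H2BC12 by 2.45 ± 0.39, adjusted p = 0.000135. H2BC15 (2.42 ± 0.30, adjusted p = 1.76e-06), H2BC5 (2.30 ± 0.25, adjusted p = 5.56e-07), H1-2 (1.57 ± 0.31, adjusted p = 0.00071), H2BC4 (1.57 ± 0.35, adjusted p = 0.00102), H4C16 (1.34 ± 0.32, adjusted p = 0.00208) and H2AC11 (1.33 ± 0.27, adjusted p = 0.000406) followed.

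H1-3, which passed the filter of this fit only through treated JJN3 libraries, was the 1 member with a larger amiloride response in JJN3 (-2.24 ± 0.84, adjusted p = 0.0359). That call ended without any 1 of 8 libraries: the first or second DMSO or the second or the third amiloride library of KMS12-BM, or the second or the third DMSO or the first or second amiloride library of JJN3 (adjusted p 0.0568 to 0.0694). Without the first JJN3 DMSO library its value was -3.00. H2BC21 had a difference of 0.45 ± 0.21, adjusted p = 0.0967, which did not pass.

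The response to TG003, given at the same dose, differed for 3 of 22 members, a share near the 13.9% of all genes (7.13% with the larger value in KMS12-BM and 6.80% in JJN3). H2BC21 (1.13 ± 0.21, adjusted p = 0.0012) and H2BC15 (1.02 ± 0.30, adjusted p = 0.0259) rose more in KMS12-BM. The H1-3 value was larger in JJN3 (-3.74 ± 0.86, adjusted p = 0.00603). H1-3 had 14 counts with DMSO and 7 with TG003 in KMS12-BM, and 10 and 88 in JJN3. It passed the filter of this fit only through treated JJN3 libraries. The H2BC15 call ended without any 1 of 5 libraries, the second DMSO or second TG003 library of KMS12-BM or the third DMSO or second or the third TG003 library of JJN3 (adjusted p 0.0528 to 0.113). Without the first JJN3 DMSO or the second KMS12-BM TG003 library the H1-3 value was -4.50 to -4.44. For H2AC6 the difference was -0.13 ± 0.30, adjusted p = 0.895, and for H4C8 it was 0.69 ± 0.23, adjusted p = 0.0527.

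The machinery that makes and degrades histone messages was followed through lists of other genes. Over all tested genes, 33.5% were higher and 35.2% lower with amiloride in KMS12-BM, 26.9% and 31.7% with TG003, 19.7% and 23.9% with amiloride in JJN3 and 26.2% and 32.1% with TG003. Of 12 genes of the histone locus body and histone gene transcription, 4 were higher and 5 lower with amiloride in KMS12-BM, 3 and 2 with TG003, 3 and 4 with amiloride in JJN3 and 2 and 3 with TG003. The 3 not called with amiloride in KMS12-BM left a called share near the 68.7% of all genes. NPAT, the activator of histone genes at the locus body, passed in none of the 4 (log2 0.06 with amiloride in KMS12-BM). CASP8AP2, the FLASH protein of the same body, was higher with TG003 in both lines (0.27 ± 0.07, adjusted p = 0.00394 and 0.52 ± 0.09, adjusted p = 0.000266). CDK2, the kinase that phosphorylates NPAT, was lower with amiloride in both lines (-0.77 ± 0.08, adjusted p = 3.96e-06 in KMS12-BM and -0.35 ± 0.07, adjusted p = 0.0017 in JJN3).

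The cyclins that pair with CDK2 gave values in the same lists. With amiloride in KMS12-BM, CCNE2 fell from 20.5 to 4.96 CPM (-2.05 ± 0.11, adjusted p = 7.42e-08) and was higher with TG003 (0.52 ± 0.10, adjusted p = 0.00126). CCNA2 was lower with TG003 in both lines (-0.71 ± 0.13, adjusted p = 0.000842 and -0.55 ± 0.10, adjusted p = 0.000528) and with amiloride in JJN3 (-0.60 ± 0.10, adjusted p = 0.000538). COIL, the coilin of Cajal bodies (0.93 ± 0.10, adjusted p = 5.3e-06), and CRAMP1 (1.0 ± 0.09, adjusted p = 2.1e-06) were higher with amiloride in KMS12-BM, and CRAMP1 in JJN3 too (0.35 ± 0.09, adjusted p = 0.00533). HINFP, a transcription factor of H4 genes, was higher with TG003 in both lines (0.56 ± 0.10, adjusted p = 0.000723 and 0.53 ± 0.07, adjusted p = 4.77e-05) and with amiloride in JJN3 (0.50 ± 0.07, adjusted p = 0.000181). POU2F1, which binds the octamer, was lower with TG003 in both lines (-0.43 ± 0.15, adjusted p = 0.0338 and -0.51 ± 0.10, adjusted p = 0.000638).

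Of 27 genes of histone 3′ end processing and decay, 10 were higher and 7 lower with amiloride in KMS12-BM, 12 and 8 with TG003, 9 and 3 with amiloride in JJN3 and 13 and 3 with TG003. With amiloride in KMS12-BM 10 were not called, a called share near the 68.7% of all genes. SLBP, the stem-loop binding protein, fell with amiloride, from 175 to 75.8 CPM in KMS12-BM (-1.21 ± 0.07, adjusted p = 1.29e-07) and from 208 to 147 CPM in JJN3 (-0.51 ± 0.08, adjusted p = 0.000427). With TG003 it did not pass in either line (-0.12 ± 0.07, adjusted p = 0.17 and -0.05 ± 0.08, adjusted p = 0.628). MIF4GD, a partner of SLBP, fell with amiloride too (-0.86 ± 0.09, adjusted p = 4.03e-06 and -0.88 ± 0.08, adjusted p = 5.25e-06).

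The U7 particle and the nuclease followed other patterns. LSM10 and LSM11, the proteins particular to U7, did not pass with amiloride in either line. With TG003, LSM11 fell in both (-0.27 ± 0.10, adjusted p = 0.0414 in KMS12-BM and -1.06 ± 0.10, adjusted p = 1.76e-06 in JJN3) and LSM10 fell in KMS12-BM (-0.34 ± 0.08, adjusted p = 0.00273). ERI1, the exonuclease that trims histone message ends, was higher in all 4 comparisons (0.62, 0.24, 0.47 and 0.24 on the log2 scale, adjusted p 7.42e-05, 0.0392, 0.00043 and 0.0188). CPSF2, a subunit of the cleavage complex, was higher with amiloride in both lines (0.94 ± 0.07, adjusted p = 4.95e-07 and 0.59 ± 0.07, adjusted p = 2.3e-05) and lower with TG003 in KMS12-BM (-0.40 ± 0.07, adjusted p = 0.000515). SNRPE (1.78 ± 0.08, adjusted p = 2.97e-09) and SNRPG (2.29 ± 0.09, adjusted p = 1.51e-09), Sm proteins shared with the spliceosome, were higher with TG003 in KMS12-BM and in JJN3 (1.91 ± 0.09, adjusted p = 5.28e-10 and 2.48 ± 0.09, adjusted p = 3.97e-11). In the same libraries processed pseudogenes took fewer reads, and the part of this in these values was not tested. SNRPD3, another Sm protein, was lower with TG003 in both lines (-0.65 ± 0.09, adjusted p = 8.84e-05 and -0.29 ± 0.09, adjusted p = 0.0136). With amiloride in JJN3, SNRPB was higher (0.53 ± 0.09, adjusted p = 0.000407) and TUT4, a uridylyltransferase, lower (-0.46 ± 0.07, adjusted p = 0.000303).

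Of 19 polyadenylation genes, 14 were higher and 3 lower with amiloride in KMS12-BM, 6 and 4 with TG003, 4 and 2 with amiloride in JJN3 and 6 and 4 with TG003. Of all genes 33.5% were higher with amiloride in KMS12-BM, 26.9% with TG003, and 19.7% and 26.2% in JJN3. PCF11, which couples cleavage to the end of transcription, rose from 98.1 to 421 CPM with amiloride in KMS12-BM (2.10 ± 0.14, adjusted p = 4.35e-07) and fell with TG003 in both lines (-1.33 ± 0.14, adjusted p = 1.83e-05 and -0.37 ± 0.11, adjusted p = 0.00914). CSTF3, a subunit of the cleavage stimulation factor, rose with amiloride in both lines (1.56 ± 0.11, adjusted p = 2.51e-07 and 0.53 ± 0.08, adjusted p = 0.000181) and with TG003 in KMS12-BM (0.93 ± 0.10, adjusted p = 1.78e-05). CPSF4, which binds the AAUAAA signal, fell with amiloride in both lines (-1.79 ± 0.12, adjusted p = 1.79e-07 and -0.70 ± 0.08, adjusted p = 3.65e-05) and with TG003 in KMS12-BM (-0.54 ± 0.11, adjusted p = 0.00153). XRN2, the nuclease that ends transcription, rose with TG003 in JJN3 (1.26 ± 0.13, adjusted p = 4.24e-06), as did CPSF1 (0.73 ± 0.08, adjusted p = 7.3e-06), while CSTF1 fell (-0.22 ± 0.07, adjusted p = 0.0142). PABPC1, the cytoplasmic poly(A) binding protein, rose with TG003 in KMS12-BM (0.35 ± 0.07, adjusted p = 0.00104) and fell with amiloride in JJN3 (-0.39 ± 0.07, adjusted p = 0.000818), where CSTF2T rose (0.38 ± 0.07, adjusted p = 0.00086). PABPN1, its nuclear counterpart, fell with amiloride in KMS12-BM (-0.67 ± 0.10, adjusted p = 0.000136).

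Of 18 listed genes active in S phase, 14 were lower and 1 higher with amiloride in KMS12-BM, at a median of -0.90 (log2), beside 35.2% lower and 33.5% higher of all genes. In JJN3 11 were lower and 0 higher, with a median of -0.39, beside 23.9% and 19.7%. RRM2, a subunit of ribonucleotide reductase, fell from 270 to 35.9 CPM in KMS12-BM (-2.91 ± 0.12, adjusted p = 1.2e-08) and from 963 to 473 CPM in JJN3 (-1.03 ± 0.11, adjusted p = 1.91e-05). PCNA, the sliding clamp of DNA polymerase, fell in both lines (-0.69 ± 0.12, adjusted p = 0.000414 and -0.35 ± 0.12, adjusted p = 0.0256), and MKI67, the proliferation marker, fell in JJN3 (-0.39 ± 0.10, adjusted p = 0.00981) but did not pass in KMS12-BM (0.12 ± 0.14, adjusted p = 0.462). TYMS fell with amiloride in KMS12-BM (-1.55 ± 0.07, adjusted p = 3.69e-08) and CDC45 in JJN3 (-1.11 ± 0.13, adjusted p = 5.54e-05), and MCM7 was the 1 that rose (0.26 ± 0.08, adjusted p = 0.0147).

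With TG003, 6 of the 18 S phase genes were higher and 2 lower in each line (all genes: 26.9% and 31.7% in KMS12-BM, 26.2% and 32.1% in JJN3), and PCNA and MKI67 passed in neither. The 2 lower ones were RRM2 (-0.55 ± 0.11, adjusted p = 0.00101 in KMS12-BM and -0.89 ± 0.11, adjusted p = 1.55e-05 in JJN3) and TYMS (-0.26 ± 0.07, adjusted p = 0.00874 and -0.39 ± 0.09, adjusted p = 0.00271). POLE, the leading-strand polymerase, was higher in both lines (0.62 ± 0.07, adjusted p = 2.92e-05 and 0.59 ± 0.07, adjusted p = 7.03e-06), MCM3 in KMS12-BM (0.54 ± 0.07, adjusted p = 2.97e-05) and CHEK1 in JJN3 (0.64 ± 0.10, adjusted p = 9.73e-05).

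A further list held 12 histone genes outside the rule, grouped as replication-independent, and how their messages end was not examined. Of 10 tested in KMS12-BM, 4 were higher and 1 lower with amiloride and 2 and 5 with TG003; of 11 tested in JJN3, 4 were higher and 2 lower with amiloride and 2 and 3 with TG003. Called shares of all genes were 68.7% and 58.6% in KMS12-BM and 43.6% and 58.3% in JJN3 (amiloride, then TG003). H3-3B, which encodes the replacement histone H3.3, rose with amiloride in both lines (0.65 ± 0.07, adjusted p = 6.18e-06 and 0.23 ± 0.06, adjusted p = 0.0119). H2AX, the variant phosphorylated at DNA breaks, fell with amiloride in both lines (-0.71 ± 0.19, adjusted p = 0.00735 and -0.54 ± 0.09, adjusted p = 0.000505), and H2AZ1 rose with amiloride in KMS12-BM (0.29 ± 0.07, adjusted p = 0.00242). CENPA, the centromere histone, rose with amiloride in KMS12-BM (0.49 ± 0.10, adjusted p = 0.000784) and fell in JJN3 (-0.43 ± 0.10, adjusted p = 0.00473); it fell with TG003 in both (-0.80 ± 0.10, adjusted p = 3.71e-05 and -0.54 ± 0.10, adjusted p = 0.000714). H2AZ2 rose in JJN3 with amiloride (0.27 ± 0.08, adjusted p = 0.0103) and TG003 (0.41 ± 0.08, adjusted p = 0.000475), and H2AJ rose with TG003 in KMS12-BM (0.94 ± 0.13, adjusted p = 7.21e-05).

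With TG003, H3-3A, the other H3.3 gene, went from 65.1 to 316 CPM in KMS12-BM and from 65.4 to 312 CPM in JJN3 (2.28 ± 0.07, adjusted p = 1.92e-10 and 2.28 ± 0.09, adjusted p = 8.79e-11). In the same libraries H3-5, an intronless relative, went from 8.80 to 0.00820 CPM and from 17.6 to 0.0332 CPM. The TG003 libraries placed fewer reads in processed pseudogenes, and the part of this in both values was not tested. Of 18 histone chaperone genes, 11 were lower and 1 higher with amiloride in KMS12-BM and 7 lower and 2 higher in JJN3. Of all genes 35.2% were lower and 33.5% higher in KMS12-BM and 23.9% and 19.7% in JJN3, and the shares called in either direction were near the 68.7% and 43.6% of all genes. CHAF1B, a subunit of the chaperone that loads histones onto new DNA, fell with amiloride (-2.19 ± 0.12, adjusted p = 6.38e-08 in KMS12-BM and -0.45 ± 0.09, adjusted p = 0.00205 in JJN3) and rose with TG003 (0.90 ± 0.11, adjusted p = 2.65e-05 and 0.83 ± 0.09, adjusted p = 5.63e-06). With amiloride, ASF1B fell (-0.96 ± 0.06, adjusted p = 2.09e-07) and ASF1A rose (0.81 ± 0.10, adjusted p = 2.73e-05) in KMS12-BM, and HIRA (0.52 ± 0.08, adjusted p = 0.000252) and DAXX (0.26 ± 0.09, adjusted p = 0.0322) rose and NAP1L1 (-0.39 ± 0.09, adjusted p = 0.00384) fell in JJN3.

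With TG003, 4 chaperone genes were higher and 7 lower in KMS12-BM, and 7 higher and 4 lower in JJN3, beside 58.6% and 58.3% of all genes called. RBBP4 was higher in both lines (0.99 ± 0.10, adjusted p = 8.03e-06 and 0.52 ± 0.07, adjusted p = 4.87e-05) and IPO4, an importin that carries histones, lower in both (-1.29 ± 0.14, adjusted p = 1.46e-05 and -0.45 ± 0.10, adjusted p = 0.00159). ATRX was lower in KMS12-BM (-0.57 ± 0.09, adjusted p = 0.000218) and ASF1A in JJN3 (-0.44 ± 0.09, adjusted p = 0.000937).

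The 12 members that did not exceed the count minimum were H1-1, H1-6, H2AC1, H2AC7, H2AC21, H2BC1, H2BC12L, H3C12, H3C13, H3C14, H3C15 and H4C3. H3C12, with 82 counts, and H2BC12L, with 67, were the highest of them over all 18 libraries. H2BC1 had no count in any library, and H1-1 and H2AC1 had 1 each. H3C12 had 5, 2 and 6 counts with DMSO in KMS12-BM and 12, 15 and 8 with amiloride. The joined members were 4 of 6 H1 genes above the minimum, 5 of 8 H2A, 9 of 11 H2B, 1 of 5 H3 and 3 of 4 H4 genes; the 31 genes not joined were 8 H2A, 6 H2B, 8 H3 and 9 H4 genes. In KMS12-BM alone 19 of the 34 exceeded 10 counts in 3 libraries, in JJN3 18, and 16 did so in both.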

How the data were processed

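Poly(A)-selected RNA was sequenced from 18 libraries with a strand-specific kit, per the labels' protocols. The authors deposited 1 table of raw counts per gene for each library. The submitters' processing notes name cutadapt 1.4, TopHat2 2.0.11, HTSeq 0.6.1p1, DESeq2 1.12.4 and the build hg19; the gene annotation, its strand setting and its overlap mode are not stated in the sources. The 3 deposited normalized tables were not used.

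Reads outside genes, ambiguous or not unique (17.5% to 31.2% of records fell outside genes) were kept out of library sizes. Counts were fitted per line with edgeR 4.0.16 in R 4.3.3 (filterByExpr with a minimum of 10 counts and a total of 15, TMM scaling, robust quasi-likelihood test), and over all 18 libraries for differences between the lines; p-values were adjusted over all genes tested by the Benjamini-Hochberg method. Values after ± are standard errors of the log2 fold change, taken from the F statistic, unless SD is written. DESeq2 1.42.0 and limma 3.58.1 (voom), other scalings, filters, samples in the fit, a replicate block and leaving out each library were alternatives. Symbols, exon lengths and coordinates came from GENCODE on GRCh37, matched by Ensembl identifier, and near-identical copies (98% over 100 bases or more) from blastn 2.17.0. Polyadenylation signals and stem-loops were searched on the gene strand, and promoter motifs on both strands of the RefSeq windows. Counting reads carry no molecular identifiers, so counting intervals and floors (3 counts) cover counting error only. Replicates differed by more than sampling noise.

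The titles carry library numbers in 3 sets of 6, with 1 library of each group per set, and the sets served as the block. Deviations from the group mean of same-set libraries correlated at 0.104 to 0.42 in KMS12-BM, against -0.414 to 0.241 for different sets. Between DMSO and TG003 in JJN3 the values were 0.328 to 0.348 against -0.24 to -0.11. The numbers were taken as pairing these libraries, although the KMS12-BM ranges overlapped. Between amiloride and TG003 in KMS12-BM, 4 of 6 libraries correlated best with their own set. Other JJN3 pairs fell under 0.1 for at least 1 set. The main tests used no block. Tested on simulated data, the fit of amiloride against DMSO recovered 72 of 100 genes changed 2-fold and 93 of 100 changed 4-fold in KMS12-BM (15765 genes), and 86 and 98 of 100 in JJN3 (15704 genes). The simulation left 15565 and 15504 of these genes unchanged, while 68.7% and 43.6% were called in the data. These rates therefore do not describe a setting with that many changes.

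Every member above 10 counts in 3 libraries was named. Full values went to the 12 highest by mean CPM and to those called in a test of the line difference, and from each pathway list the 2 genes with the smallest adjusted p in each direction and 13 fixed genes were named; some named by this rule are not reported here. The members and lists were chosen with earlier results of these data known.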

Additional observations from a re-analysis of the deposited data

Results flagged for a closer look

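The response of some members differed between KMS12-BM and JJN3 by the interaction term of edgeR's fit to all 18 libraries. For TG003, given at 0.4 mM in both lines, the difference in log2 fold change (KMS12-BM minus JJN3) was 1.13 for H2BC21, 1.02 for H2BC15 and -3.74 for H1-3. Of 22 tested members, 2 were called with the larger value in KMS12-BM and 1 in JJN3, shares near the 7.13% and 6.80% of all genes. The H2BC15 call ended without any 1 of 5 libraries. H1-3 passed the filter of that fit only through treated JJN3 libraries. For amiloride, at a KMS12-BM dose of 0.1 mM against 0.4 mM for JJN3, the difference was 3.21 for H2BC11, 3.10 for H4C8, 2.52 for H3C4, 2.49 for H2AC6, 2.45 for H2BC12, 2.42 for H2BC15, 2.30 for H2BC5, 1.57 for H1-2, 1.57 for H2BC4, 1.34 for H4C16 and 1.33 for H2AC11, all larger in KMS12-BM. For H1-3 the amiloride difference was -2.24, larger in JJN3, on 14 counts over the 3 DMSO libraries of KMS12-BM and 10 over those of JJN3. That H1-3 call ended without any 1 of 8 libraries. Of 22 tested members, 11 were called with the larger rise in KMS12-BM and 1 in JJN3, beside 21.6% of all genes in each direction. Line and dose cannot be told apart for amiloride.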

How the results depend on the processing

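Counts of called members stayed within 1.5 times of the reported count under most settings. Without the filter on low counts, 11 instead of 6 members differed between amiloride and TG003 in JJN3, and 5 instead of 3 differed in TG003 response between the lines. Leaving out each library in turn gave 9 to 16 called members for TG003 in KMS12-BM (9 without the third DMSO library) and 3 to 7 for amiloride against TG003 in JJN3 (3 without the second TG003 library). It gave 17 to 19 for amiloride in KMS12-BM, 7 to 9 for amiloride and 11 to 14 for TG003 in JJN3, 14 to 16 between untreated lines, 14 to 19 for amiloride against TG003 in KMS12-BM, 11 to 12 for the amiloride line difference and 2 to 4 for that of TG003. With the replicate block by numbered library set, called members were 18 for amiloride and 15 for TG003 in KMS12-BM and 10 and 13 in JJN3. For amiloride in JJN3 the same-set correlations were weak, at 0.049 to 0.0944, against -0.15 to 0.0463 for different sets. All 6 libraries correlated best with their own set. There H2AC11 (0.28, adjusted p = 0.0499) and H2BC12 (0.395, adjusted p = 0.00171) were called with the block in edgeR. Beside the calls named in the text, the block changed no other.

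Without H2BC12, the members summed to a CPM of 64.94, 471.2 and 149.4 (scaled to reads in genes) with DMSO, amiloride and TG003 in KMS12-BM, and to 125.8, 210.4 and 258.4 in JJN3. No called value changed sign. Values that were not called and changed sign were H4C16 with TG003 in KMS12-BM (0.0149 with upper-quartile factors, -0.18 to 0.064 with a library left out), H1-5 with amiloride in JJN3 (-0.0712 with limma voom, -0.979 to 0.765), and, with a library left out, H1-4 with TG003 in KMS12-BM (-0.38 to 1.25) and, in JJN3, H1-2 (-0.105 to 0.26), H1-4 (-0.104 to 0.64), H2BC11 (-0.588 to 0.146) and H2BC4 (-0.00198 to 0.663) with amiloride and H2BC4 with TG003 (-0.0284 to 0.241). The cause was not tested. H2AC25, called with both drugs in KMS12-BM, lost the amiloride call with upper-quartile factors, no filter or limma voom (adjusted p 0.0515 to 0.117) and the TG003 call with no filter or limma voom (0.0837 to 0.0917). H2BC12 lost its TG003 call there without the filter (0.883, adjusted p = 0.107), and H2BC15 its amiloride call in JJN3 with the compared groups alone (adjusted p = 0.073). Low counts limit H1-3, H1-4, H1-5, H2BC13, H2BC18, H2BC26 and H4C11 most.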

Other observations

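Some members were counted in 1 line and at 0 in the other, and the genes beside them were looked at after these values were seen. H2AC25 and H2BC26 had no count in JJN3. Their neighbour RNF187 had 113732 counts over the KMS12-BM libraries and 20809 over those of JJN3, TRIM11 had 15496 and 6729, and TRIM17 had 0 and 1. Around H4C3, which had no count in KMS12-BM, HFE had 2 counts in KMS12-BM and 1322 in JJN3, while TRIM38 had 13861 and 11259, H1-2 16088 and 23115 and H2BC4 2262 and 502. Near H1-5, also without a count in KMS12-BM, H2BC15 had 3557 and 1033. Among the 11 histone pseudogenes joined to the count tables and left out of the members, H2BC27P had 80 counts in KMS12-BM and 0 in JJN3, and H2AC10P had 38 and 0.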
